A study of Mus musculus with 104 samples.

Results

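The transcripts that changed when hepatocytes lost most of their Hao1 mRNA at a low siRNA dose were examined in 16 RNA-seq libraries of a study of glycol nucleic acid (GNA) isonucleotides in siRNAs. The whole series holds 25 groups, with 4 libraries for each of 6 siRNAs at each of 4 doses and 8 mock libraries. All libraries came from primary mouse hepatocytes (PMH), liver cells put into culture directly from the animal, transfected with Lipofectamine RNAiMax in 384-well plates and collected 24 h later. The 8 siRNA-treated libraries had received 1 nM of D2 or 1 nM of D3 (4 libraries each), and the 8 control libraries were labelled as mock transfection controls. D2 carries GNA-C and D3 carries GNA-isoC at position 5 of the same guide strand against Hao1. GNA is a nucleotide analogue with an acyclic glycol backbone, and in isocytosine the amino and carbonyl groups of cytosine are exchanged. D1 is the parent siRNA with the same guide and no GNA, and D5 is a GNA siRNA against another liver transcript (Ttr). D1 and D5 were compared at 1 nM, as were D2 and D3 at 0.1 nM. D2 and D3 were also followed at 10 and 50 nM, so that all 4 doses (0.1, 1, 10 and 50 nM) were used. D4, the Ttr parent without GNA, and D6, the Ttr siRNA with GNA-isoG, were used at 1 nM. The labels do not say whether replicates were separate cultures or animals, so the p-values measure the spread between these libraries, which may be technical. In bulk RNA, fewer cells of a type and less RNA per cell cannot be told apart.

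Hao1 encodes glycolate oxidase, a peroxisomal flavoenzyme of hepatocytes that oxidises glycolate to glyoxylate with release of hydrogen peroxide. Glyoxylate is converted to glycine by the aminotransferase Agxt, reduced back to glycolate by Grhpr, or oxidised to oxalate by lactate dehydrogenase. Silencing of glycolate oxidase in the liver lowers the supply of glyoxylate and is used against overproduction of oxalate in primary hyperoxaluria. An siRNA guide also represses other mRNAs, in the manner of a miRNA, through pairing of its seed (guide positions 2 to 8) with their 3′-UTRs.

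The guide and the sites below are shown because the question turns on which pairings remain at this dose. The guide is given with the GNA position in capitals, and the Hao1 site, which pairs with all 23 guide positions, with the base opposite the GNA nucleotide in capitals. In the other 4 sites, which belong to the mRNAs with the longest seed match (ATCGACAA) most lowered by the parent D1 at 1 nM, capitals mark that match.
Guide: uuguCgaugacuuucacauucug
Hao1: cagaatgtgaaagtcatcGacaa
Rnf115: tacaggtggaattgtATCGACAA
Cog2: atatggtaaaagtaaATCGACAA
Elovl6: tcatcacgaaaaataATCGACAA
Ube4b: tcagttcccaacacaATCGACAA
In GRCm39, the Hao1 site was chr2:134340220-134340242 on the minus strand, in coding sequence of exon 8. The other sites were in 3′-UTRs, at chr3:96697501-96697523 (plus strand, Rnf115), chr8:125278467-125278489 (plus strand, Cog2), chr3:129427173-129427195 (plus strand, Elovl6) and chr4:149412899-149412921 (minus strand, Ube4b).

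The libraries held between 3409963 and 5351445 gene counts, with medians of 4927571 for mock, 4904640 for D2 and 5142382 for D3. Of 55416 genes listed, 11070 passed edgeR's filter on low counts and were tested. Hepatocyte markers were abundant, with a summed level of 24864 to 30757 CPM (counts scaled to the library's total, TMM-adjusted) in mock and 27621 to 31771 CPM with siRNA. Of the other liver cell types, 7 of 10 Kupffer cell markers (Adgre1, Clec4f, Vsig4, Marco, Cd5l, C1qa and C1qb), 4 of 7 lymphocyte markers and the endothelial markers Kdr and Clec4g were at 0 in all 16 libraries. Summed levels in mock and with siRNA were 16.2 to 23 and 17.2 to 33.5 CPM for Kupffer cell, 1.66 to 5.66 and 1.86 to 5.17 CPM for endothelial, 14.7 to 27.1 and 14.2 to 65.3 CPM for stellate cell and fibroblast, 0.584 to 4.48 and 1.8 to 4.63 CPM for lymphocyte and 225 to 248 and 213 to 254 CPM for cholangiocyte markers. The part of these cells in the results was not tested. A pair of siRNA libraries, D2 replicate 2 and D3 replicate 3, stood apart in a list of interferon-induced genes, with summed levels of 2885 and 4014 CPM. The other 6 siRNA libraries lay between 1123 and 1746 CPM and the mock libraries between 1418 and 2083 CPM.

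The target itself (ENSMUSG00000027261) was silenced in all 8 libraries. Hao1 counts were 15, 7, 12 and 6 with D2 and 10, 10, 9 and 11 with D3, and lay between 117 and 205 (median 155) in mock. In CPM, the lowest, median and highest siRNA libraries were at 1.17, 1.95 and 3.0, and the mock libraries at 27.7, 33.8 and 38.7, so that the groups were far apart. Hao1 fell by 4.04 on the log2 scale (SE 0.133, adjusted p = 1.03e-25, edgeR's quasi-likelihood test with Benjamini-Hochberg adjustment), to 6.03% ± 1.74 (SD, n = 8) of the mock mean. With counts this low the remaining level is imprecise.

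At 1 nM, no difference between GNA-C and GNA-isoC in the silencing of Hao1 was detectable at this depth. The log2 fold change was −4.03 with D2 and −4.05 with D3 (SE 0.178 each), and the difference between them was −0.02 on the log2 scale (SE 0.312, 95% interval −0.646 to 0.616, adjusted p = 0.999, edgeR). Relative to the mock mean, D2 left 6.06% ± 2.58 and D3 left 6.01% ± 0.667 (SD, n = 4 each). The parent D1 at 1 nM left 8.07% ± 3.91 (SD, n = 4), and Hao1 was 0.41 lower on the log2 scale in the pooled D2 and D3 libraries than with D1, with a 95% interval of −1.059 to 0.231 (adjusted p = 0.671, edgeR). Hao1 with D2 and D3 pooled was lower at 1 nM than at 0.1 nM by a log2 value of −2.33 (adjusted p = 1.86e-05, edgeR). With D5, Hao1 stood at 85.8% ± 11.6 of mock (SD, n = 4).

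At the lowest dose the D2 and D3 libraries did not overlap, though the difference missed the threshold after adjustment over doses. At 0.1 nM, Hao1 was at 13.5, 14.4, 13.5 and 13.8 CPM with D2 and at 7.31, 3.73, 7.2 and 9.11 CPM with D3, so that all D3 libraries lay below all D2 libraries. D2 left 41.1% ± 1.27 and D3 left 20.4% ± 6.71 of the mock mean (SD, n = 4 each). Their log2 CPM differed by −1.03 (D3 minus D2), with p = 0.0286 in a two-sided exact permutation test of libraries, the smallest that 4 against 4 can give, and an adjusted p of 0.114 over the 4 doses. At 10 nM D2 left 4.08% ± 1.58 and D3 2.42% ± 1.05, and at 50 nM D2 left 5.2% ± 1.53 and D3 2.38% ± 1.14 (SD, n = 4 each). The ranges overlapped at both doses, and the exact permutation p was 0.171 and 0.0571 (adjusted p = 0.228 and 0.114).

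**Figure D1:**
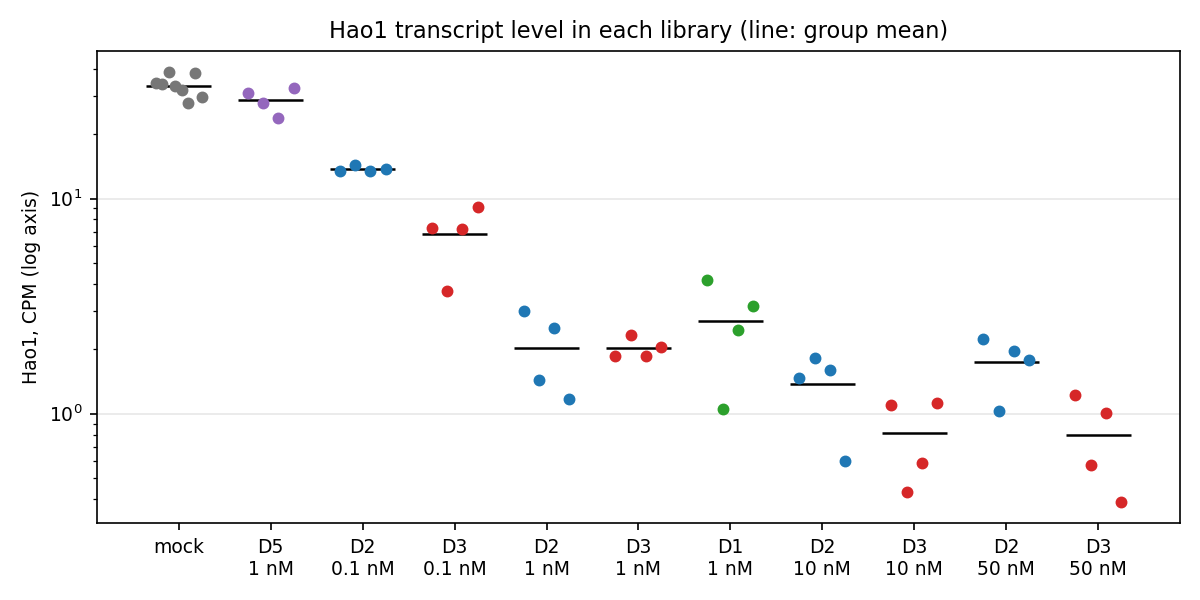
Hao1 level (CPM, log axis) in each library by siRNA and dose, with 1 point per library. The D2 and D3 libraries at 1 nM lie between 1.17 and 3.0 CPM, the mock libraries between 27.7 and 38.7 CPM, the D2 libraries at 0.1 nM between 13.5 and 14.4 CPM and the D3 libraries at 0.1 nM between 3.73 and 9.11 CPM.

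Beyond Hao1, few genes passed the test, and their changes were small. By edgeR's quasi-likelihood test with Benjamini-Hochberg adjustment, 13 of 11070 genes (0.117%) passed an adjusted p of 0.05, 7 of them higher (0.0632%) and 6 lower (0.0542%) than mock. All 13 moved in both siRNAs, with the same sign and an unadjusted p under 0.05 with D2 and with D3. They were chosen by the pooled test on the same libraries, which nearly fixes this, and with D2 alone each of the 12 other than Hao1 had an adjusted p of 0.83 (edgeR). At an unadjusted p under 0.05 there were 1296 genes, or 11.7% of those tested, against the 5% that chance gives. The 2 siRNAs differed in this: of 11415 genes tested for each, there were 669 with D2 alone and 1348 with D3 alone. The count of 13 was 91 with all genes of at least 1 count, and with only the mock libraries numbered 1 to 4 it was 120, or 98 with the replicate number as a block. Apart from Hao1 no gene moved by more than 0.77 on the log2 scale among those called. The number called rested on single libraries: without D2 replicate 1 it was 55, without D2 replicate 2 it was 4, without D3 replicate 2 or mock replicate 2 it was 3, without D3 replicate 3 or mock replicate 4 it was 2, and without D3 replicate 1, D3 replicate 4, mock replicate 3 or mock replicate 7 only Hao1 was called. Without both libraries high in interferon-induced genes, Hao1 and Sri were called. Each other called gene was therefore lost in at least 4 of these 16 omissions, and each kept its sign in all of them.

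The 5 other genes that fell were Sri, Nus1, Tmed5, Atxn7l3b and Map4. Sri (ENSMUSG00000003161, chromosome 5) encodes sorcin, a calcium-binding protein. Its level was 82.5 CPM in the lowest siRNA library, 93.4 CPM at the median and 94.1 ± 7.8 CPM on average (SD, n = 8), against 97.4, 116 and 133 CPM in the lowest, median and highest mock library. Of the 8 siRNA libraries 5 were below all of mock, and the highest lay within the mock range. Sri fell by 0.29 (log2, SE 0.0545, adjusted p = 0.0173, edgeR) and was still called in 12 of 16 omissions of a library. Nus1 (ENSMUSG00000023068, chromosome 10), a subunit of the prenyltransferase that makes dolichol for protein glycosylation, was at 117, 135 and 153 CPM against 150, 158 and 180 CPM in mock. Of the 8 siRNA libraries 7 were below all of mock, and Nus1 fell by 0.26 (log2, SE 0.0508, adjusted p = 0.0296, edgeR), a call kept in 9 omissions. Tmed5 (ENSMUSG00000063406), a p24 family cargo receptor between endoplasmic reticulum and Golgi, was at 129, 137 and 158 CPM against 136, 176 and 189 CPM. The ranges overlapped, with 4 siRNA libraries below all of mock, and Tmed5 fell by 0.27 (log2, SE 0.0577, adjusted p = 0.0419, edgeR).

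Atxn7l3b (ENSMUSG00000074748) encodes a paralogue of a subunit of the SAGA deubiquitinase module. Its siRNA libraries were at 93.9, 111 and 124 CPM and its mock libraries at 113, 134 and 140 CPM, with 6 siRNA libraries below all of mock. It fell by 0.24 (log2, SE 0.051, adjusted p = 0.0366, edgeR). Map4 (ENSMUSG00000032479), the main microtubule-associated protein of non-neuronal cells, was at 708, 745 and 775 CPM against 803, 821 and 863 CPM. No siRNA library reached the lowest mock library, although the change was the smallest of the 13, a fall by 0.15 (log2, SE 0.0326, adjusted p = 0.0366, edgeR). Map4 and Map1b were, with Hao1, the called genes among 11 (0.0994% of those tested) whose 8 siRNA and 8 mock libraries did not overlap in log2 CPM.

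The 7 genes that rose were Jag1, Ltbp3, Plpp3, Peg3, Map1b, Tspan9 and Tmem176a. Jag1 (ENSMUSG00000027276), a Notch ligand, was at 180, 197 and 222 CPM in the lowest, median and highest siRNA library against 141, 170 and 188 CPM in mock. Jag1 was 0.25 higher (log2, SE 0.0509, adjusted p = 0.0366, edgeR) with 6 siRNA libraries above all of mock, but −0.02 when libraries were scaled by their ERCC spike-in totals. On that scale the median of all genes was −0.25, against 0.01 with TMM, so that Jag1 still lay above the median gene. Ltbp3 (ENSMUSG00000024940), which binds latent TGF-β, had 5.35, 8.38 and 14.2 CPM against 4.38, 5.3 and 6.44 CPM. With 7 siRNA libraries above all of mock, Ltbp3 rose by 0.77 (log2, SE 0.162, adjusted p = 0.0366, edgeR), the most of the 7, at a low level. Plpp3 (ENSMUSG00000028517), a phosphatase of lysophosphatidic acid and related lipids, was at 35.2, 41.7 and 46.0 CPM against 23.9, 34.0 and 35.2 CPM. It rose by 0.34 (log2, SE 0.0753, adjusted p = 0.0419, edgeR), with 7 siRNA libraries above all of mock.

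The imprinted zinc finger gene Peg3 (ENSMUSG00000002265) was at 39.0, 45.6 and 61.5 CPM against 30.9, 37.1 and 41.1 CPM in mock and rose by 0.43 (log2, SE 0.0844, adjusted p = 0.0366, edgeR). Map1b (ENSMUSG00000052727), a microtubule-associated protein best known from neurons, was at 7.83, 9.15 and 12.8 CPM against 4.21, 6.19 and 7.32 CPM. All 8 siRNA libraries were above all of mock, and Map1b rose by 0.68 (log2, SE 0.143, adjusted p = 0.0366, edgeR). The tetraspanin Tspan9 (ENSMUSG00000030352) was at 101, 121 and 128 CPM against 87.3, 98.2 and 113 CPM and rose by 0.24 (log2, SE 0.0539, adjusted p = 0.0419, edgeR). Tmem176a (ENSMUSG00000023367), a multipass membrane protein, was at 195, 221 and 252 CPM against 176, 188 and 217 CPM. It was 0.22 higher (log2, SE 0.0464, adjusted p = 0.0366, edgeR), but −0.03 with ERCC scaling.

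Several called genes share genomic sequence with other genes: Sri with Adam22, Tmem176a with Tmem176b and Tmed5 with Mtf2, all on the opposite strand. The strand setting of the counting was not given in the sources used here, so reads of these partners could not be told apart with certainty.

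**Figure D2:**
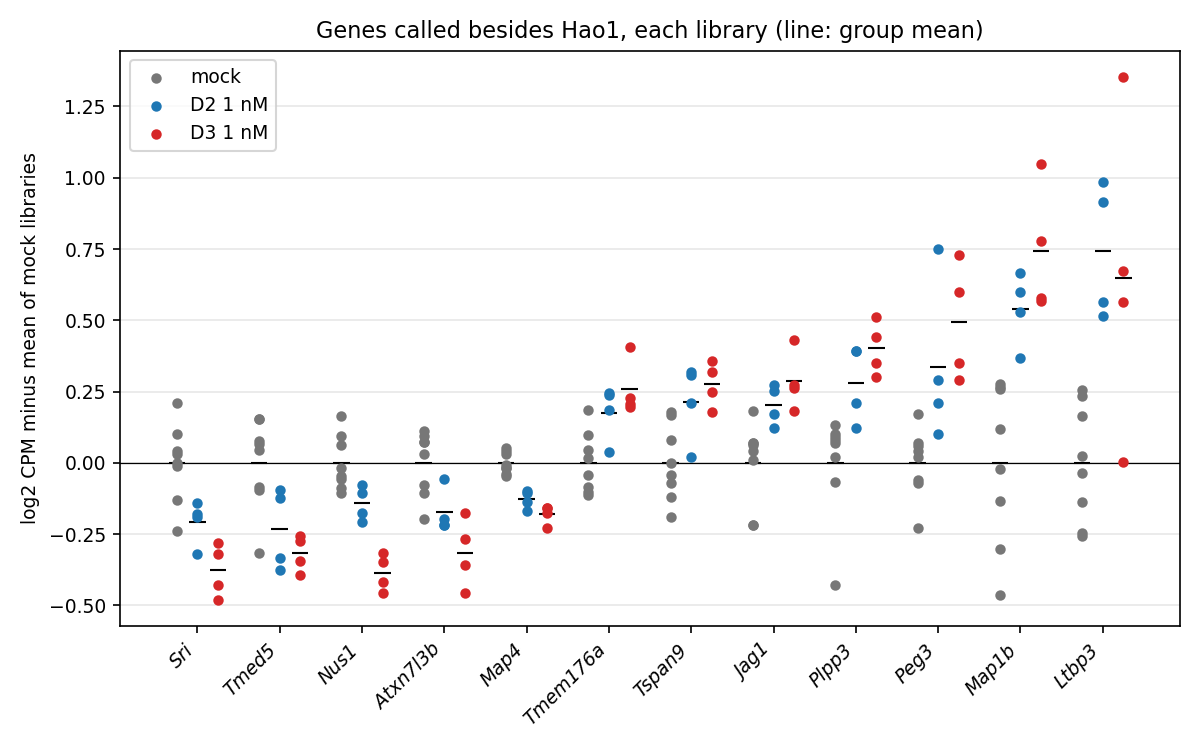
Difference of log2 CPM from the mock mean in each library for the 12 called genes other than Hao1, with 1 point per library for mock, D2 and D3 at 1 nM. Map4 and Map1b show no overlap between siRNA and mock libraries, while Sri, Tmed5 and Jag1 do overlap, with 5, 4 and 6 of 8 siRNA libraries beyond all of mock. The signs of Jag1 and Tmem176a turn with ERCC scaling.

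With D2 alone only Hao1 was called of 11415 genes (0.00876%), with 669 at an unadjusted p under 0.05. With D3 alone 52 genes were called (0.456%), 23 higher (0.201%) and 29 lower (0.254%), with 1348 at an unadjusted p under 0.05. Of these 52, 51 had the same sign with D2 and 28 had an unadjusted p under 0.05 with D2. The 23 higher genes had a median log2 fold change of 0.39 with D3 and 0.17 with D2, and the 29 lower genes −0.31 and −0.13. These genes were chosen on D3, which favours the larger value there, and both siRNAs were set against the same 8 mock libraries. Tested directly, no gene differed between D3 and D2 in edgeR (0 of 11415, 0%), with 481 genes at an unadjusted p under 0.05. DESeq2 also called 0, with 451 at an unadjusted p under 0.05. Without D3 replicate 1 edgeR called 2. Of the genes called with D3, Col4a2 was 0.42 with D3 and 0.17 with D2, Dbt, a subunit of the branched-chain ketoacid dehydrogenase, was −0.51 and −0.09, and Msmo1, a sterol synthesis enzyme, was −0.50 and −0.14. The count for D3 fell to 26 without mock replicate 3, 31 without mock replicate 4, 25 without D3 replicate 1, 20 without D3 replicate 2 and 14 without D3 replicate 3.

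The 12 called genes other than Hao1 were then followed over the dose range and the other siRNAs, where each comparison uses the same mock libraries, so that the values are given side by side. The 5 genes that fell at 1 nM were at −0.03 to −0.12 at 0.1 nM, where only Hao1 was called of 11048 genes (0.00905%). At 10 nM, where 10.2% of genes were called, all 5 were called, from −0.43 for Atxn7l3b to −0.87 for Sri. At 50 nM, where 20.4% were called, they lay between −0.50 for Atxn7l3b and −0.91 for Sri, with Nus1 at −0.90. Hao1 itself moved from −4.04 at 1 nM only to −4.91 and −4.71.

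The 7 genes higher at 1 nM were also above mock at 0.1 nM, from 0.12 (Peg3) to 0.43 (Ltbp3), though none was called there. Jag1, Tmem176a and Tspan9 were at 0.16, 0.17 and 0.17 at 0.1 nM. Of the 7, 5 were called at 10 nM and 6 at 50 nM. Plpp3 was at 0.05 at 10 nM (adjusted p = 0.785) and −0.02 at 50 nM (adjusted p = 0.888, edgeR). Ltbp3 was at 0.77, 0.50 and 0.56 and Map1b at 0.68, 0.52 and 0.68 for 1, 10 and 50 nM, and both were called at each. Peg3 was not called at 10 nM (0.22, adjusted p = 0.2) and was called at 50 nM (0.51, adjusted p = 0.000158, edgeR). Tspan9 was at 0.24, 0.26 and 0.19, Jag1 at 0.25, 0.43 and 0.41 and Tmem176a at 0.22, 0.22 and 0.29 over the same doses, all called.

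At 1 nM, the parent D1 also removed most of the Hao1 mRNA, without GNA in its guide. Against mock, 71 of the genes tested for D1 were called (0.632%), and Hao1 was at −3.62, but none of the 12 others was called. The 5 genes that fell with D2 and D3 stood between −0.04 (Map4) and 0.09 (Tmed5) with D1. Of the 7 higher genes, Map1b was at 0.56 with D1 (adjusted p = 0.185), Ltbp3 at 0.33 (adjusted p = 0.692) and the other 5 between −0.03 (Tmem176a) and 0.09 (Peg3, adjusted p = 0.843, edgeR). In the direct test of the pooled D2 and D3 libraries against D1, 125 of 11277 genes (1.11%) differed, 70 higher (0.621%) and 55 lower (0.488%), among them 6 of the 12. Tmed5 was −0.36 (adjusted p = 2.88e-05), Sri −0.26 (adjusted p = 0.0128), Nus1 −0.25 (adjusted p = 0.0308) and Atxn7l3b −0.22 (adjusted p = 0.0481) relative to D1 (edgeR's quasi-likelihood test). Plpp3 was 0.34 (adjusted p = 0.0403) and Tmem176a 0.24 (adjusted p = 0.0128). For Map4, Jag1, Tspan9, Peg3, Map1b and Ltbp3 the difference from D1 missed the threshold (adjusted p = 0.0576 to 0.854, edgeR). The 125 became 31, 41 and 47 without D1 replicate 1, 3 or 4, 221 without D2 replicate 1, and 82 and 72 without D3 replicate 3 or 4. These genes were chosen on the pooled libraries that enter this test, so their difference from D1 is in part set by that choice.

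Against D5, the GNA siRNA to Ttr, 6 of 11312 genes (0.053%) differed from the pooled D2 and D3 libraries at 1 nM, 3 in each direction (0.0265%). Hao1 was −3.82 (adjusted p = 3.68e-16) and Atxn7l3b −0.31 (adjusted p = 0.0417, edgeR). Ttr, the target of D5, was higher, and the other 3 were Cnot6, Otud4 and Fgfbp1. Nus1, Tmed5, Sri and Map4 were at −0.28, −0.31, −0.27 and −0.16 (adjusted p = 0.171 to 0.258, edgeR). None of the 7 genes that were higher than mock was called against D5, where they ranged from −0.08 (Tspan9) to 0.40 (Map1b). Several of these were also higher with the Ttr siRNAs than with mock: Tmem176a was 0.22 with D4, the Ttr parent (adjusted p = 0.0198), and 0.22 with D6, the GNA-isoG siRNA (adjusted p = 0.0387), while Tspan9 was 0.28 with D6 (adjusted p = 0.0151) and Ltbp3 0.65 with D4 (adjusted p = 0.042, edgeR). Of the genes tested, 2.07% were called with D4, 2.13% with D6 and 0.0444% with D5. Against D2 and D3 at 0.1 nM, 2 of 11074 genes (0.0181%) differed, Hao1 and Sri (−0.27, adjusted p = 0.0217, edgeR). Only Hao1 differed without D2 replicate 1 or D3 replicate 1, 2 or 4 at 1 nM, or D2 replicate 2 or 4 at 0.1 nM. The genes called against mock were chosen on the pooled libraries that enter the tests against D5 and 0.1 nM. Their differences there are in part set by that choice.

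**Figure D3:**
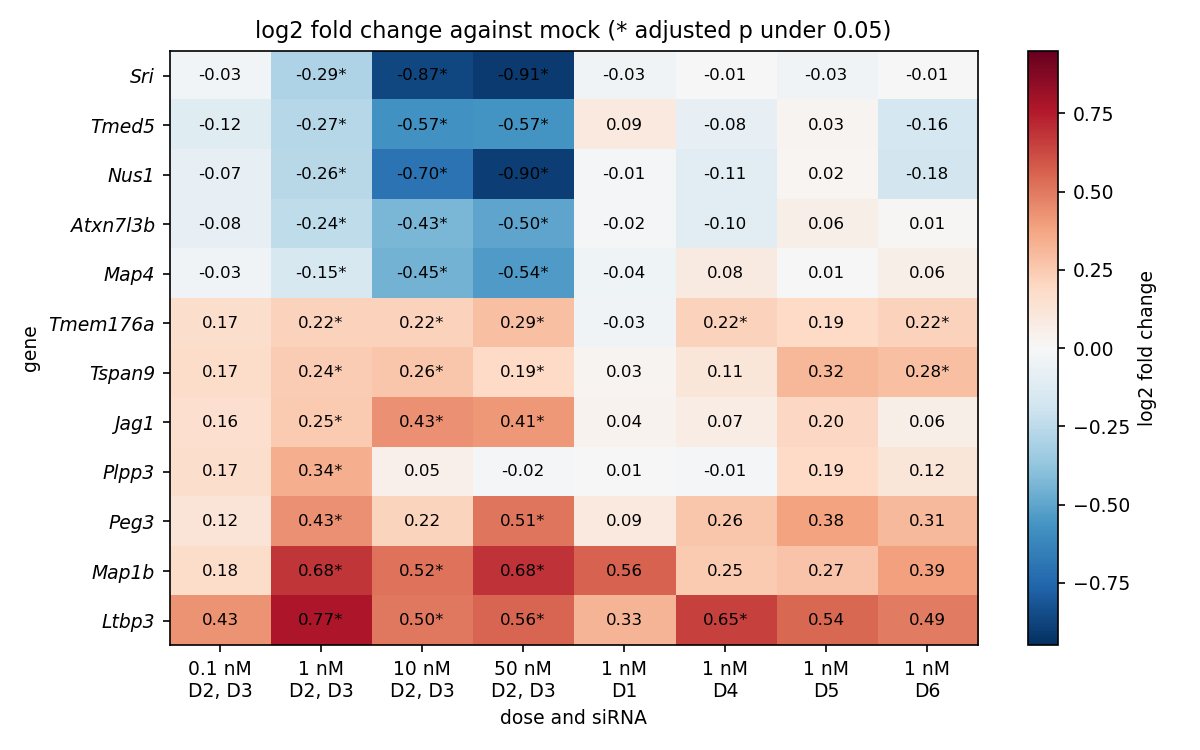
Log2 fold change against mock of the called genes other than Hao1 (rows), with an asterisk for an adjusted p under 0.05. Columns are D2 and D3 pooled at 0.1, 1, 10 and 50 nM and D1, D4, D5 and D6 at 1 nM. All columns share the 8 mock libraries. Sri runs from −0.03 at 0.1 nM to −0.91 at 50 nM and is at −0.03 with D1. The signs of Jag1 and Tmem176a at 1 nM turn with ERCC scaling.

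Among enzymes of glycolate and glyoxylate metabolism only Hao1 passed the test. Of 13 genes listed, 9 were tested and 1 was called, the target itself. With 0.117% of all genes called, a list of this size would hold none by its size alone, and the absence of other calls is no result about the pathway. Their median log2 fold change was 0.11, against 0.01 for all genes tested. Hao2, Prodh2 and Ldhb had at most 2, 8 and 3 counts in any library and Dao had 0, too few to test. Per kb of exon, the mock median was 173 CPM for Ldha, 10.3 for Pgp (phosphoglycolate phosphatase), 5.85 for Hoga1, 5.69 for Hao1, 3.46 for Grhpr, 3.44 for Glyctk, 2.82 for Agxt, 2.22 for Aldh4a1 and 1.0 for Agxt2. The length used was the union of all annotated exons of a gene, 10.7 kb for Grhpr, 5.95 kb for Hao1 and 1.81 kb for Agxt. The order between genes depends on these lengths, and other lengths were not tried. In this order the mock libraries of Hoga1 and Hao1, of Grhpr and Glyctk, of Glyctk and Agxt, and of Agxt and Aldh4a1 overlapped, and those of the other neighbours did not. With siRNA, Hao1 was at 0.327 CPM per kb and dropped below each of the other 8 tested enzymes.

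Agxt, the aminotransferase that removes glyoxylate, was at 5.11, 6.55 and 7.8 CPM in the lowest, median and highest siRNA library and at 3.47, 5.11 and 8.04 CPM in mock. The siRNA libraries lay within the mock range, and the log2 fold change was 0.28 (SE 0.162, adjusted p = 0.515, edgeR). Grhpr, glyoxylate reductase, was level in both groups at a median of 37.3 CPM with siRNA and 37.0 CPM in mock (−0.00, SE 0.0716, adjusted p = 0.998, edgeR). Ldha, the abundant lactate dehydrogenase subunit, was at 655, 745 and 800 CPM against 762, 819 and 911 CPM in mock, with 5 of 8 siRNA libraries below all of mock. Its log2 fold change of −0.15 (SE 0.04) did not pass the adjusted threshold (adjusted p = 0.142, edgeR). Aldh4a1, Glyctk and Hoga1, which act in hydroxyproline and glycerate breakdown, were at 0.27, 0.23 and 0.18 (adjusted p = 0.284, 0.363 and 0.455), and Pgp and Agxt2 at −0.14 and 0.11 (adjusted p = 0.466 and 0.866, edgeR).

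**Figure D4:**
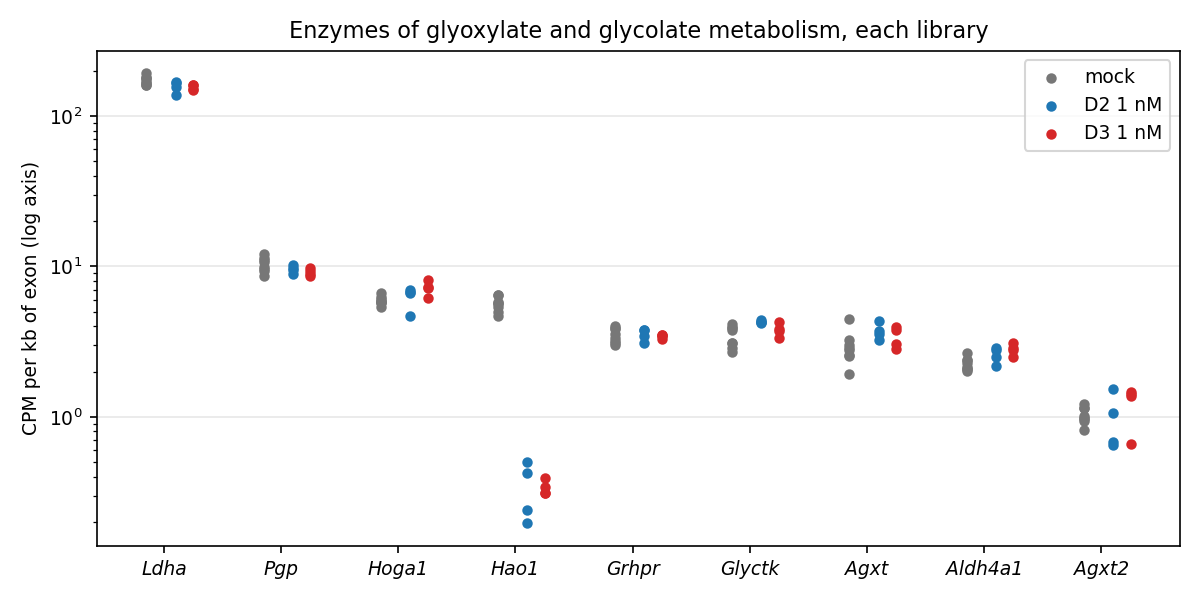
Level (CPM per kb of exon, log axis) of 9 enzymes of glyoxylate metabolism in each mock and siRNA library at 1 nM. Hao1 moves from a median of 5.69 to 0.327, while the mock and siRNA medians of Grhpr are 3.46 and 3.48 and those of Ldha 173 and 157.

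No other pathway list had a called member, which at 0.117% of all genes is the background. Peroxisomal oxidases and peroxide-removing enzymes (12 tested) had a median log2 fold change of −0.02, peroxisome biogenesis genes (21 tested) 0.03, and glycine, serine and one-carbon enzymes (23 tested) −0.02. In the last of these, Psat1 and Phgdh of serine synthesis were at −0.14 each (adjusted p = 0.246 and 0.29) and Shmt1, which interconverts serine and glycine, at −0.18 (adjusted p = 0.354, edgeR). PPARA targets (14 tested) and genes of the unfolded protein and integrated stress response (14 tested) had medians of −0.01 and 0.01, p53 targets (10 tested) −0.01, genes of the RNA interference machinery (12 tested) 0.02 and gluconeogenesis and urea cycle genes (9 tested) 0.06. Over all genes tested the median was 0.01.

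Slightly larger medians were seen in 5 lists, none with a gene past the adjusted threshold. The members counted here as higher or lower are those with an unadjusted p under 0.05. NRF2 targets and glutathione genes had a median of 0.08, with 6 of 17 higher at an unadjusted p under 0.05, against 6.4% of all genes. Among them Osgin1 was at 0.18 (adjusted p = 0.202), the cystine transporter Slc7a11 at 0.25 (adjusted p = 0.35) and thioredoxin reductase Txnrd1 at 0.10 (adjusted p = 0.27, edgeR). Sterol and fatty acid synthesis genes had a median of 0.07, with 4 of 17 higher, including Srebf1 at 0.19 and Srebf2 at 0.15, and 1 lower, Elovl6 at −0.13 (adjusted p = 0.202, 0.221 and 0.384, edgeR). Hepatocyte markers had a median of 0.08, with 4 of 16 higher, Ahsg at 0.30, Apob at 0.15, Trf at 0.14 and Alb at 0.09 (adjusted p = 0.263 to 0.352, edgeR). Acute phase genes had a median of 0.07, and 2 of 16 were higher, Lbp at 0.31 and Lcn2 at 0.09 (adjusted p = 0.301 and 0.323, edgeR). Interferon-response genes had a median of 0.21 with wide scatter. Cxcl10 was at 1.48 (SE 0.631, adjusted p = 0.382) and Rsad2 at 1.25 (SE 0.554, adjusted p = 0.402, edgeR), and Rsad2 reached 263 CPM in D2 replicate 2 and 737 CPM in D3 replicate 3 and lay between 52.8 and 114 CPM in the other 14 libraries. The part of the interferon-high libraries in the other results was not tested beyond leaving them out.

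The genes next in rank, 8 in each direction, had an adjusted p between 0.0618 and 0.126. Col4a2, a collagen chain of basement membranes, was at 290, 326 and 396 CPM in the lowest, median and highest siRNA library. In mock it was at 235, 271 and 285 CPM, without overlap (log2 0.30, SE 0.0634, adjusted p = 0.0618, edgeR). At 1 nM of D5 and D1, Col4a2 was also above all of mock, at 312 to 380 and 307 to 364 CPM. Against D5, it was at −0.05 with D2 and D3 pooled (adjusted p = 0.987, edgeR). Col4a5, another such chain, was at 0.53 (adjusted p = 0.0618) and the endoplasmic reticulum selenoprotein gene Selenon at 0.32 (adjusted p = 0.0618, edgeR). On the lower side, Rab1a, a GTPase of transport between endoplasmic reticulum and Golgi, was at 244, 268 and 303 CPM against 279, 303 and 328 CPM (−0.18, adjusted p = 0.0618, edgeR). Slc25a5, a mitochondrial ADP/ATP carrier, was at −0.17 (adjusted p = 0.0618), Mrps25, of the mitochondrial ribosome, at −0.31 (adjusted p = 0.0618) and the retinal dehydrogenase gene Aldh1a1 at −0.15 (adjusted p = 0.101, edgeR). Gapdh was at −0.08 (adjusted p = 0.369, edgeR).

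Seed repression was measured in the same libraries. Of 10541 tested genes with an annotated 3′-UTR, 2.86% held a seed match of the guide, read as letters in the longest annotated 3′-UTR: ATCGACAA (guide positions 2 to 8 and an A opposite position 1, in 0.389%), ATCGACA (positions 2 to 8) or TCGACAA (positions 2 to 7 and the A, in 0.987%). The 41 genes with ATCGACAA had a median log2 fold change against mock of 0.03 with D2 and D3 pooled (0.01 with D2 and 0.04 with D3) and −0.09 with D1 at 1 nM. Of the 41, 15 (36.6%) were below 0 with D2 and D3 and 28 (68.3%) with D1, against 47.6% and 49.5% of the genes with no match. When any annotated 3′-UTR was read, 55 genes held ATCGACAA, of which 47.3% were below 0 with D2 and D3 and 65.5% with D1. Their medians were 0.03 pooled, −0.01 with D2, −0.02 with D3 and −0.07 with D1. The share below 0 with D2 and D3 and the sign with D3 thus depended on the 3′-UTR read. With D1, 4 of the 41 (9.76%) were called lower, against 0.352% of the genes with no match. With D2 and D3 none of the 41 was called, which at 0.0488% of the genes with no match is the background. For the 156 genes with ATCGACA the medians were −0.01 and −0.04, and for those with TCGACAA −0.01 for both, against 0.01 and 0.00 for the 10239 genes with none.

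The 4 genes shown above with their sites fell with D1. Rnf115, a ubiquitin ligase, was at −0.55 with D1 (adjusted p = 2.2e-07) and −0.13 with D2 and D3 (adjusted p = 0.284), and the difference between them was 0.42 (SE 0.0588, adjusted p = 1.62e-05, edgeR). Cog2, a subunit of a Golgi tethering complex, was at −0.52 with D1 (adjusted p = 0.00975) and −0.01 with D2 and D3, a difference of 0.51 (adjusted p = 0.00624, edgeR). Ube4b, a ubiquitin chain elongation factor, was at −0.35 (adjusted p = 0.000752) and −0.01, a difference of 0.34 (adjusted p = 0.000424, edgeR). For Elovl6, a fatty acid elongase, the difference missed the threshold: it was at −0.42 with D1 (adjusted p = 4.16e-05) and −0.13 pooled, a difference of 0.28 (adjusted p = 0.186, edgeR). It was at 0.00 with D2 and −0.28 with D3 (adjusted p = 0.0233, edgeR). The 4 were chosen for their value with D1, which enters these differences.

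**Figure D5:**
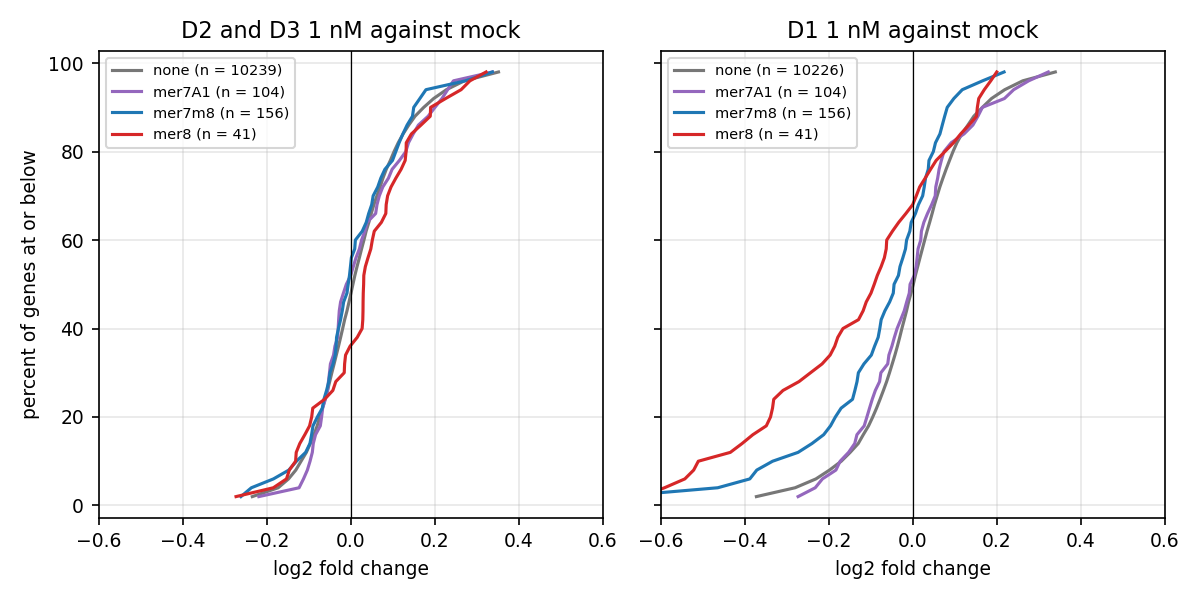
Percentile of genes (y axis) at or below each log2 fold change against mock (x axis) for genes with each kind of seed match and with none, with D2 and D3 pooled at 1 nM and with D1 at 1 nM. The curve of the 41 genes with ATCGACAA has its median at 0.03 with D2 and D3 and at −0.09 with D1.

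None of the 5 genes other than Hao1 that fell with D2 and D3 held a seed match, and of the 7 that rose, Plpp3 held ATCGACA and Jag1 TCGACAA. With another letter opposite guide position 5, ATCAACA was present in Nus1, Atxn7l3b and Map4, 3 of the 5, against 10.2% of genes. The 1031 genes with ATCAACA outside the seed-match sets had a median of 0.00, and no other of them was called lower, where 0.0452% of all genes other than Hao1 were. ATCCACA was present in Tmed5 and Plpp3 (14.3% of genes) and ATCTACA in Map4, Peg3 and Plpp3 (11.6%). The passenger-strand seed match TCACATT was present in Nus1, Tmed5 and Map1b (18.6%). Motif windows can overlap, and these matches describe letters only. The longest run of bases that could pair with the guide anywhere in a called gene's transcripts was 11 in Nus1 (guide positions 12 to 22) and 11 in Map1b (positions 1 to 11, outside its annotated 3′-UTR), a length reached by 3.07% of genes, and 7 to 9 in the other 10.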

How the data were processed

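Libraries of primary mouse hepatocytes were made with the TruSeq Stranded Total RNA kit and sequenced on a NextSeq500. The authors trimmed reads with fastq-mcf (mean quality of at least 28, length of at least 36), used STAR to align them to GRCm39, and deposited unnormalized read counts per gene from featureCounts (2.0.2, per the submitters' processing notes, with a mapping quality of at least 10), separately for 2 sequencing runs per library. The annotation and strand setting were not given in the sources used here. The runs of a library differed by about the sampling noise (chi-square divided by its degrees of freedom 1.01 to 1.051, against 1.671 to 5.862 for the 40 pairs of replicates) and were summed. ERCC spike-ins, 0.453% to 1.058% of counts, were left out. The authors' 24 tables of DESeq2 results (mean, log2 fold change, standard error, Wald statistic, p and adjusted p) were not used.

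The test across genes was edgeR's (version 4.0.16, with R 4.3.3: TMM, filterByExpr, robust glmQLFit, glmQLFTest), with only the groups compared in each fit. D2 and D3 were pooled as 1 group, and a fit with 3 groups gave the value of each and their difference. P-values were adjusted by Benjamini-Hochberg over all genes tested, and a gene with an adjusted p under 0.05 is called. SE is the standard error of the log2 fold change. CPM used TMM library sizes, and log2 CPM a prior count of 2. Levels per kb used the union of exons of the annotation at hand (GENCODE, GRCm39), which held 54749 of the 55416 genes. The guide was read from the reference as the complement of the Hao1 site. The fits were tested on simulated counts.

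The genes named are Hao1, all called genes that moved in both siRNAs, the 8 next in p-value in each direction, the glyoxylate list, up to 4 members of each other list with the lowest p-value, the seed-matched genes most lowered by D1, and Gapdh, of which some are not reported here. Dbt, Msmo1, Ttr, Cnot6, Otud4 and Fgfbp1 were named after their values were seen. The comparison, the 19 gene lists and the tests were chosen with earlier results of these data known. The alternatives were DESeq2 1.42.0 with and without betaPrior, RLE size factors, ERCC totals, all genes with at least 1 count, all libraries in a single fit, each run alone, the mean of the D2 and D3 contrasts, other controls, the replicate number as a block and each library left out in turn. DESeq2 without independent filtering, the block's 12 libraries without the block, the omission of the shallow mock or interferon-high libraries and the exact test of Hao1 between D3 and D2 by dose (log2 CPM) were added after seeing the data.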

Additional observations from a re-analysis of the deposited data

Results flagged for a closer look

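Of 42 values by gene and group examined for a library far from the rest of its group, 4 stood out by the gap to the nearest library as a share of the group's whole range, and chance gives about 1 in 20. Atxn7l3b was at 124 CPM in D2 replicate 1 against 111 to 113 CPM in the other D2 libraries (share 0.841), so that this library lay within the mock range. Tmem176a was at 252 CPM in D3 replicate 1 against 218 to 222 CPM (share 0.856). Plpp3 was at 23.9 CPM in mock replicate 4 against 30.8 to 35.2 CPM in the other mock libraries (share 0.65), and it was not called in 12 of 16 omissions of a library. The reference gene Gapdh was at 710 CPM in D3 replicate 4 against 691 to 693 CPM in the other D3 libraries (share 0.872), all within the mock range of 687 to 778 CPM.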

How the results depend on the processing

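Hao1 kept its direction and its call against mock in every alternative that gave it an adjusted p, from −4.139 to −3.951 over the omissions of a library. The number of genes called against mock, 13 here, was 91 with all genes of at least 1 count, 55 with DESeq2 with or without betaPrior, 29 with DESeq2 without independent filtering, 12 with run 1 alone, 1 with run 2 alone, 9 with all libraries of the series in one fit, 9 without the shallow mock libraries and 1 with ERCC totals, where the log2 fold changes of Jag1 and Tmem176a were −0.01845 and −0.03275. DESeq2's filter left 24048 of 25314 genes, Hao1 among them, with no adjusted p, and 3 of the 13 had one. Without that filter all 13 were called. Genes that moved in both siRNAs numbered 78 with all genes of at least 1 count, 41 with DESeq2, 28 without its filter, 1 with run 2 alone, 7 with all libraries and 1 where an adjusted p under 0.05 was required in each siRNA. For D3 alone (52) the counts were 157 with all genes of at least 1 count, 29 with run 1, 26 with run 2 and 26 with all libraries, and for D3 against D2 (0) they were 12 with all genes of at least 1 count and 2 with DESeq2 without its filter. Against D5 (6), 15 genes were called with all genes of at least 1 count, 15 with all libraries and 39 with D4, D5 and D6 as control. Against 0.1 nM (2) the counts were 23 with all genes of at least 1 count, 4 with DESeq2, 6 without its filter and 0 with run 2, and against D1 (125) they were 213, 73 with run 1, 51 with run 2 and 46 with all libraries. Without the libraries high in interferon-induced genes, 2 genes were called against mock, 2 moved in both siRNAs and 16 were called for D3. Over the omissions of a library the counts ranged from 1 to 55 against mock, 1 to 54 in both siRNAs, 14 to 72 for D3, 0 to 2 for D3 against D2, 4 to 7 against D5, 1 to 3 against 0.1 nM and 31 to 221 against D1, and D2 alone stayed at 1.

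With the replicate number as a block, which uses only the 4 mock libraries numbered like the siRNA libraries, 98 genes were called against mock, 98 moved in both siRNAs, 4 were called for D2 and 174 for D3. The same 12 libraries without the block gave 120, 120, 4 and 177, so the counts were as high or higher without the block. Deviations of the 12 same-numbered pairs from their group means correlated at −0.155 to 0.089, none over 0.1, and the numbers were not taken to pair the libraries. Of the values of single genes, 203 kept their call or lack of one, 176 lost a call and 2 reversed. The causes of these shifts were not tested. Depth limits Hao1, with 6 to 15 counts left per siRNA library, and Ltbp3 and Map1b, at under 15 CPM.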
